A study of Homo sapiens with 12 samples.

Results

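Enzalutamide, an antiandrogen given to treat prostate cancer, gave 9000 listed regions of chromatin that lay inside protein-coding genes, away from the gene ends, and appeared in no list of the other treatments. They were chosen by position alone. A region of the enzalutamide list was kept if it overlapped no region of the OSU-ERb-12 list or the combination list by 1 bp or more, overlapped the body of a RefSeq protein-coding gene, and did not overlap a window of 1 kb either side of any protein-coding gene end. These 9000 were 35.5% of the 25317 enzalutamide regions (exact 95% interval 35.0 to 36.1) and 39.1% of the 23003 that appeared in the enzalutamide list alone. The cells were 22Rv1, an established human prostate cancer line, and accessibility was measured by ATAC-seq, in which a transposase cuts DNA that is not packed away. Of 12 samples, 3 received vehicle, 3 enzalutamide at 1 µM, 3 OSU-ERb-12, a ligand of oestrogen receptor beta, at 100 nM, and 3 both agents (OSU-ERb-12 plus enzalutamide), with no doses in their labels. All were harvested at 6 h, all are labelled WT for genotype, and all come from a single cell line. The lists hold positions with no value per library. No replicate error or test between treatments was therefore possible, intervals cover the counting of regions only, and sequencing depth is unknown. The lists were read as differences from the vehicle group, which all of them would then share, and the sources used here give neither the direction of change nor the caller.

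The body of a gene holds its exons and introns. Introns carry many enhancers, which are stretches bound by transcription factors that act on the promoter of the same or another gene, and they carry alternative promoters, from which shorter or differently spliced transcripts begin. Androgen signalling acts largely through enhancers in introns and between genes, beside pioneer factors such as FOXA1 that open chromatin. Many alternative promoters are CpG islands, stretches in which the dinucleotide CG has been kept where most of the genome has lost it.

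Of 8514 gene-body regions on chromosomes with annotated starts to hand, 179 held an annotated transcript start. The start windows of RefSeq (GRCh38.p14, 250 bases before to 50 after each start) give the letters of these sites. Below are the bases just before the start that also lie in the listed region, for 4 later starts of the host gene rich in CG, which show the common kind. Each is written 5′ to 3′ on the strand of the gene, with every CG in capitals. ZFP36L1 holds the widest of all 9000 regions (chr14:68793417-68793616, minus strand). RBPJ (chr4:26320814-26321013, plus strand) and NFIB (chr9:14314955-14315154, minus strand) start far inside their genes, and PIK3R1 (chr5:68288319-68288518, plus strand) starts deep in a signalling gene.
ZFP36L1: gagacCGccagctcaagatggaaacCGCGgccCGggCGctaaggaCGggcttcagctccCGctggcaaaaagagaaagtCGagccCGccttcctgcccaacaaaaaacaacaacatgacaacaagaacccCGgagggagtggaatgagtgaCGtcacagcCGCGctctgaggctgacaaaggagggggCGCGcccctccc
RBPJ: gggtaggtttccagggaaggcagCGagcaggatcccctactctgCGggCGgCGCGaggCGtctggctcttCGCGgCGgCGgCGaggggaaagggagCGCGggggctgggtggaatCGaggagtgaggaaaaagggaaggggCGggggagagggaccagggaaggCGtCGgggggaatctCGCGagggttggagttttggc
NFIB: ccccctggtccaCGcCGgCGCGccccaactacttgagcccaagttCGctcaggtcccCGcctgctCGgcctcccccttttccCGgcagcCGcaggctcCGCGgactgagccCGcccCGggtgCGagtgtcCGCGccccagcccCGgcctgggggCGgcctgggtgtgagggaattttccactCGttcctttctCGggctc
PIK3R1: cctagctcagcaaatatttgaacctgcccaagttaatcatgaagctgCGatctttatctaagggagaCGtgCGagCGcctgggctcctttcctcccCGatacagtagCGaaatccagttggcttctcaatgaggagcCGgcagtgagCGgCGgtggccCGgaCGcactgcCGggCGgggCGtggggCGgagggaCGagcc

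The other kind is poor in CG, and 4 of these are shown with matches to transcription factor motifs in capitals instead. RTN4 (chr2:55010273-55010472, minus strand) has letters that are only part of an androgen response element. SMAD3 (chr15:67125542-67125741, plus strand) has an AP-1 site. KCNMB3 (chr3:179251115-179251314, minus strand) has a FOXA site followed by a GATA site, and INHBA (chr7:41703091-41703290, minus strand) a GATA site. The letters searched were TGTTCT for part of the androgen response element and TGTTTAC for FOXA. The others were TGANTCA for AP-1, AGATAA for GATA and CCGGAAG for ETS factors. All were searched on both strands, and a whole androgen response element was not searched for. A match is a run of letters and says nothing about binding.
RTN4: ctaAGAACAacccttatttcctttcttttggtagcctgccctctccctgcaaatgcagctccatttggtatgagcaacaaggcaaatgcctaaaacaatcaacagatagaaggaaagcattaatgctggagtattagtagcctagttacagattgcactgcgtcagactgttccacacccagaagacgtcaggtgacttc
SMAD3: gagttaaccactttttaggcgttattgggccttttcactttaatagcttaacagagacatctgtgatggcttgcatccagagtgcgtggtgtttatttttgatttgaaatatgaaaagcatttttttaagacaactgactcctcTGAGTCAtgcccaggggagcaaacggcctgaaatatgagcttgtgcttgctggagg
KCNMB3: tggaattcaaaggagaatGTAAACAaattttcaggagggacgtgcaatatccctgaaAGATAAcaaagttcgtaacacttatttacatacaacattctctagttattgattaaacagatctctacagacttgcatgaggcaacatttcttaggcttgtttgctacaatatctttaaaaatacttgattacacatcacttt
INHBA: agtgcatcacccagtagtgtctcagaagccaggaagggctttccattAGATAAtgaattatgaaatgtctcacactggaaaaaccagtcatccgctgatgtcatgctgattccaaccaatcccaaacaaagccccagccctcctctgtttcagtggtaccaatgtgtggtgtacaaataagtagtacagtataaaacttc

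The first 4 sequences held 15 CG in 200 bases in ZFP36L1, 19 in RBPJ, 20 in NFIB and 16 in PIK3R1. The last 4 held 2 in RTN4, 3 in SMAD3, 2 in KCNMB3 and 1 in INHBA. Over the whole 300-base window, the observed number of CG over that expected from base composition was 0.982 for RBPJ and 0.0716 for INHBA. A total of 193 annotated starts lay in a listed region. Their median ratio was 0.753 and their median GC content 63.7%. The 7909 starts inside gene bodies that lay in no region of the 3 lists had a median ratio of 0.338 and a median GC content of 53.7%. A ratio of 0.6 or more, a common mark of CpG islands, was reached by 129 of the 193 starts (66.8%; exact interval 59.7 to 73.4) and by 29.1% of the unlisted ones (28.1 to 30.1). The enzalutamide-only regions at gene ends, which are the ordinary promoters and gene 3′ ends, held 888 starts with a higher median ratio, 0.848. Starts inside gene bodies in an OSU-ERb-12-only region had a median of 0.617, but there were 29 of them, and the interval for the share at 0.6 or more ran from 32.5 to 70.6%. The 8 starts in combination-only regions had a median of 0.764, and 6 of them (75.0%; 34.9 to 96.8) reached 0.6.

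TGTTCT, the searched part of the androgen response element, was in 19 of the 193 windows (9.84%; 6.03 to 14.9). It was in 18.0% of the windows of unlisted starts inside gene bodies and in 14.8% of all start windows. FOXA letters were in 4.66%, 4.05% and 3.42% of these sets. For GATA the shares were 8.29% (4.81 to 13.1), 12.6% and 10.4%, and for AP-1 6.74% (3.63 to 11.2), 9.74% and 7.72%. The ETS letters, which hold a CG themselves, were in 7.25%, 5.07% and 10.2%. The interval for TGTTCT lay below the share in unlisted starts, while those for GATA and AP-1 contained it. The sets differ in GC content as given above, and its part in these shares was not tested.

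Annotated starts were found in a larger share of the enzalutamide-only gene-body regions than of those of the other lists. The 179 of 8514, which leave out the 486 regions of chromosome 8, were 2.10% (exact interval 1.81 to 2.43). For OSU-ERb-12-only gene-body regions it was 27 of 6927 (0.390%; 0.257 to 0.567), and for combination-only ones 7 of 2018 (0.347%; 0.140 to 0.713). Width differs between the lists, so the comparison was repeated in regions of 200 bp, the shortest width in any list. The shares were then 1.31% (0.983 to 1.70), 0.364% (0.212 to 0.582) and 0.409% (0.150 to 0.889). The interval for enzalutamide still lay above both others, but it covers the counting of regions only, and a difference between treatments was not tested. Among the enzalutamide-only regions the share was higher the wider the region, from 1.31% at 200 bp to 11.0% of 172 regions of 500 bp or more (6.78 to 16.7). Seen from the starts, 193 of the 8216 annotated starts inside gene bodies lay in an enzalutamide-only region (2.35%), 29 in an OSU-ERb-12-only region (0.353%) and 8 in a combination-only one (0.0974%). A start within 1 kb was found for 9.11% of the enzalutamide-only regions (8.51 to 9.75), 2.73% of OSU-ERb-12-only (2.36 to 3.14) and 4.11% of combination-only regions (3.29 to 5.07).

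**Figure D1:**
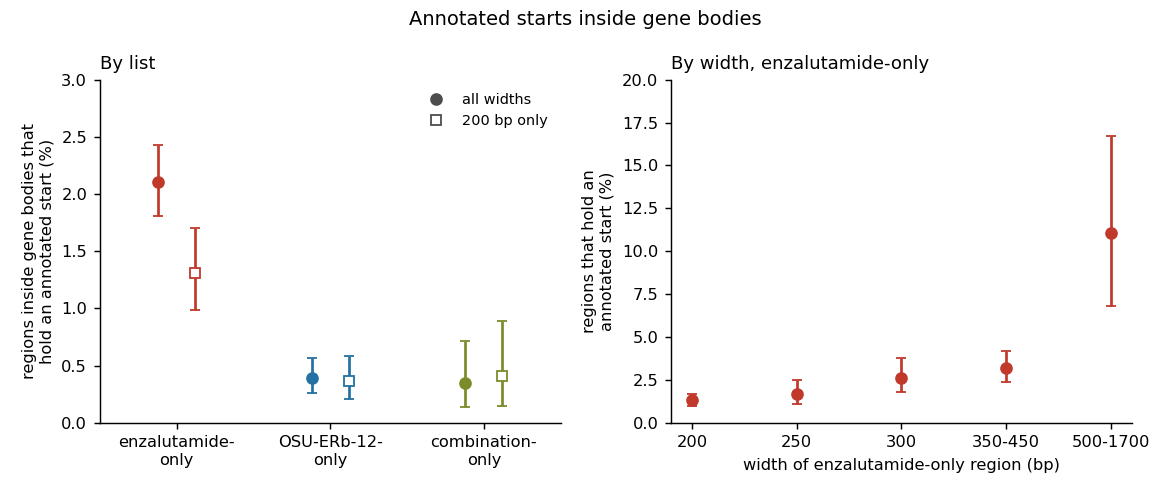
Share of regions inside gene bodies, outside chromosome 8, that hold an annotated RefSeq start (y axis, percent), by list (left; filled circles all widths, open squares 200 bp regions only) and by width of the enzalutamide-only region in bp (right). Bars are exact 95% intervals that cover the counting of regions only; the enzalutamide-only share was 2.10% against 0.390% and 0.347%, and reached 11.0% in the widest class.

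Most of the starts belonged to the gene in which the region lay. In 151 regions the start was a later start of the host gene itself, spread over 148 genes, and in 31 regions it was the start of a long non-coding RNA, 26 of them with the non-coding RNA on the opposite strand. The later starts lay 1.04 to 1124 kb from the first start of the gene, with a median of 15.9 kb. The farthest was in DAB1, an adaptor of reelin signalling, in a 200 bp region. In the 1700 bp region of ZFP36L1, which encodes an RNA-binding protein that triggers decay of AU-rich messages, the start lay 2.83 kb in. ZMYND11, whose protein reads a histone methylation mark, had 4 annotated starts in a single 1000 bp region, 4.71 to 5.51 kb in. HK1, a hexokinase gene, had its start 48.2 kb in, in a region of 950 bp. RBPJ, the DNA-binding factor of Notch signalling, had starts 216 kb in, in a region of 650 bp.

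Several of these genes are known for isoforms that begin at different promoters. TPM1, a tropomyosin gene, had a later start 5.74 kb in, in a region of 800 bp. PIK3R1, which encodes the regulatory subunits of PI3-kinase, had one 72.8 kb in and held no other listed region. In NFIB, a nuclear factor I gene with a role in prostate development, 2 listed regions held starts, 217 and 216 kb in. BDNF, a neurotrophin gene with many first exons, had one 20.4 kb in. TSC22D3, the glucocorticoid-induced leucine zipper gene, had one 58.9 kb in, CREM, a cyclic AMP responsive factor, at 69.0 kb, and SMAD3, a TGF-beta signal transducer, at 60.1 kb. RARA, a retinoic acid receptor gene, had one 33.0 kb in and ESRRG, an orphan receptor related to the oestrogen receptors, 47.9 kb in, both in regions of 200 bp. The lists do not say which transcripts the cells make from any of these starts.

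The enzalutamide-only gene-body regions were wider than those of the other lists. Their median width was 250 bp, the mean 264 bp and the widest 1700 bp, and together they covered 2375 kb. In both other lists the median was 200 bp. Widths of 400 bp or more were found in 9.98% of them (9.37 to 10.6), in 1.29% of OSU-ERb-12-only (1.04 to 1.57) and in 0.795% of combination-only gene-body regions (0.464 to 1.27). The same enzalutamide list gave 16.1% at gene ends (15.1 to 17.2) and 10.2% between genes (9.61 to 10.9), so regions inside genes had about the width of intergenic ones. The 8 widest lay in ZFP36L1 (1700 bp), SLC7A2, a cationic amino acid transporter gene (1250 bp), SESN3, a stress-induced sestrin (1150 bp), ZMYND11 (1000 bp), and, at 950 bp each, HK1, FNDC3A, IFNGR2, the second chain of the interferon gamma receptor, and DAPK1, a death-associated kinase. No annotated start was found in the regions of FNDC3A, IFNGR2 and DAPK1, and chromosome 8, which holds SLC7A2, was not searched.

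Some of the regions lay near one another. Another such region was within 10 kb for 21.6%, against 17.5% among OSU-ERb-12-only and 7.58% among combination-only gene-body regions, in lists of 9000, 7456 and 2138 regions whose number itself sets part of the spacing. The median distance to the nearest was 44.9 kb, close to the 46.4 kb of OSU-ERb-12-only regions, and 179 kb for combination-only ones. Chains with gaps under 2 kb numbered 316 and took in 665 regions (7.39%). Of these chains, 27 had 3 or more regions.

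The rule has 2 edges. At the 1 kb window the nearest regions kept were in OPN3 and PHLPP2, 1000 bp from a gene end, and DMRTB1, 1001 bp. The nearest left out were in GABPB1, ARRDC4 and KIF16B, at 997 bp. Between 1 and 2 kb from a gene end lay 745 regions (8.28%), and 2810 (31.2%) lay over 50 kb from any. At the edge of overlap, 11 regions abutted a region of another list without sharing a base, among them 1 in FOXP1, 167 (1.86%) lay within 500 bp of one and 1298 (14.4%) within 5 kb. Of all enzalutamide regions inside gene bodies, 820 of 9820 (8.35%) had been left out because another list shared them.

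The regions leaned towards the start of the gene. Strand was known for 7437 pairs of a region and its gene, and 53.8% of these regions had their midpoint nearer the start than the far end of the gene (exact interval 52.6 to 54.9). OSU-ERb-12-only regions gave 49.9% (48.6 to 51.1) and combination-only regions 46.5% (44.2 to 48.9). Within 5 kb of the start lay 12.5% of the pairs (11.8 to 13.3), against 7.66% (7.01 to 8.36) and 8.15% (6.90 to 9.55). Within 5 kb of the far end the shares were 7.87%, 7.02% and 8.97%, with intervals that overlapped between enzalutamide and each of the others. In the first kilobase outside the window, 378 pairs lay 1 to 2 kb from the start and 144 lay 1 to 2 kb from the far end. The lean came in part from the stretch next to the start: with a window of 5 kb at gene ends, 51.7% lay nearer the start.

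**Figure D2:**
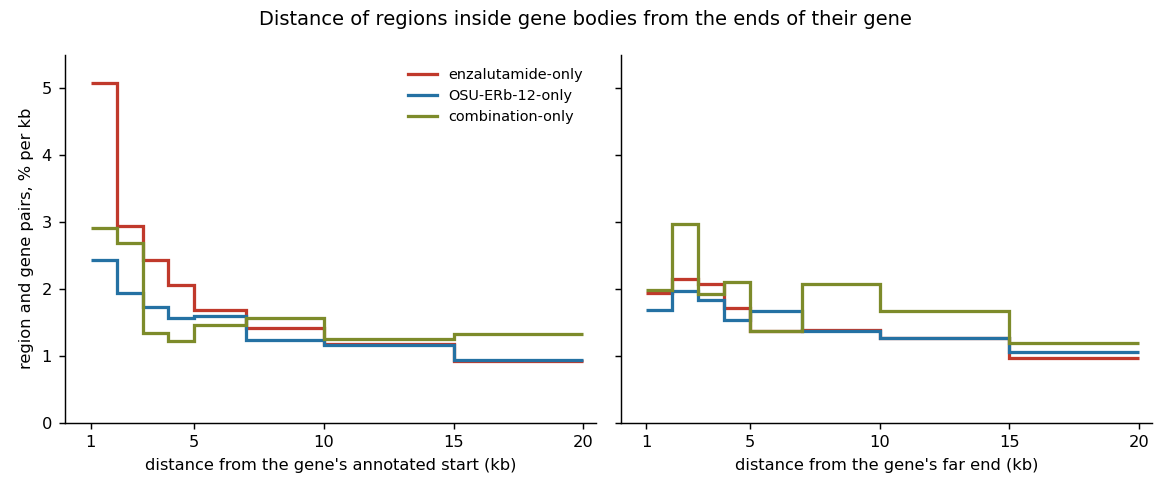
Distance of regions inside gene bodies from the annotated start of their gene (left) and from its far end (right), x axis in kb from 1 kb, the edge of the window left out, and y axis in percent of region and gene pairs per kb. The enzalutamide-only line stands at 5.08% per kb at 1 to 2 kb from the start and at 1.94% per kb at the same distance from the far end.

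The 9000 regions fell in 5144 protein-coding genes, 25.7% of all 20037. Of the 18599 genes with at least 200 bp away from gene ends, 27.7% held one. An OSU-ERb-12-only region lay inside 23.0% of the same genes and a combination-only region inside 9.43%. A total of 8813 regions lay in 1 gene, 180 in 2 overlapping genes, 6 in 3 and 1 in 5. One region was all that 3159 of the genes held (61.4%), 1729 held 2 to 4 and 256 held 5 or more. Genes with a region had a median length of 81.2 kb, and those with room for one but none had 19.2 kb. From the shortest decile of genes to the longest the share with a region went from 4.09% to 76.1%. Per megabase of body the order was the opposite, 26.2 regions in the shortest decile and 6.01 in the longest; for OSU-ERb-12-only regions the values were 10.2 and 5.26. Of the genes with an enzalutamide-only region, 44.8% also held an OSU-ERb-12-only one, as did 53.8% the other way round. For combination-only regions these shares were 19.6% and 57.4%.

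The genes with the most regions were long. ESRRG, of 634 kb, and ANKS1B, a gene of synaptic signalling of 1250 kb, held 15 each. ESRRG held 7 OSU-ERb-12-only and no combination-only regions, and ANKS1B held 11 and 1. IQCJ-SCHIP1, a read-through gene, held 14, and 12 of these were the 12 of SCHIP1, which lies within it. The synaptic scaffold gene DLG2 also held 14, and NFIB, AFF3, of a family of elongation factors, and the neurexin-family gene CNTNAP2 held 13 each. The number of OSU-ERb-12-only regions in these genes ran from 1 in NFIB to 17 in IQCJ-SCHIP1. The predicted gene LOC124905135, TRAPPC9, a gene of vesicle transport, and the scaffold gene MAGI2 held 12. FOXP1, a forkhead factor, KCNMA1, a calcium-activated potassium channel, CTNNA3, an alpha catenin, and CSMD1 held 11. OSU-ERb-12-only regions numbered 1 in LOC124905135, 7 in TRAPPC9, 5 in MAGI2, 8 in FOXP1, 7 in KCNMA1 and 3 in CTNNA3. CSMD1 held 16 of them, more than its enzalutamide-only regions, and 4 combination-only ones. In its 450 kb, NFIB held 13 enzalutamide-only regions, 1 OSU-ERb-12-only and no combination-only region.

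In NFIB 6 of the 13 lay between 209 and 220 kb from the first start. They included a chain of 3 spanning 1900 bp, and the 2 regions with annotated starts were among the 6. The OSU-ERb-12-only region lay at 191 kb.

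The densest genes were short. EPOR, the erythropoietin receptor gene, held 3 in 7.1 kb, or 4.22 per 10 kb. C1orf116, which encodes a protein known as a specifically androgen-regulated gene product, held 6 in 14.2 kb, or 4.21 per 10 kb, with no region of either other list. They lay at 1.93, 2.66, 4.51, 6.41, 7.46 and 12.9 kb from its start, so that the first 5 formed a chain of 5850 bp. The phosphatase gene CTDSP1 held 3 (3.13 per 10 kb). SLC2A1, which encodes the glucose transporter GLUT1, held 10 in 33.5 kb (2.98 per 10 kb), including the longest chain of all, 7 regions over 6900 bp (chr1:42932401-42939300). Its widest, of 850 bp, lay 16.5 kb from the start, and the chain ran from 19.7 to 26.3 kb. No OSU-ERb-12-only and no combination-only region lay inside it away from gene ends, but 1 region of the full OSU-ERb-12 list overlapped its body. In the decile of genes with a median length of 33.0 kb, 20.3% held an OSU-ERb-12-only gene-body region and 8.71% a combination-only one.

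Of the other dense genes, DOK4, a docking protein of receptor tyrosine kinases, held 4 and BBC3, the p53 target PUMA, held 3. SAXO5 and SKIDA1 held 3 each. The developmental factors OSR1 and TBX3 held 3 each and KLF16, a Krüppel-like factor, held 5. KDM6B, a histone demethylase, held 4, and PSD and CABLES2 held 3 each. Apart from CTDSP1 and SAXO5, with 1 combination-only region each, and LOC124905135, with 1 OSU-ERb-12-only region beside its 12, none of the 15 densest genes held a gene-body region found only in another list. Most genes this short held none either. In the deciles of gene length with medians of 6.91 to 33.0 kb, 4.03% to 20.3% of genes held an OSU-ERb-12-only gene-body region. For combination-only regions the shares were 1.51% to 8.71%. The 15 genes were chosen for their density, so the counts only describe them.

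**Figure D3:**
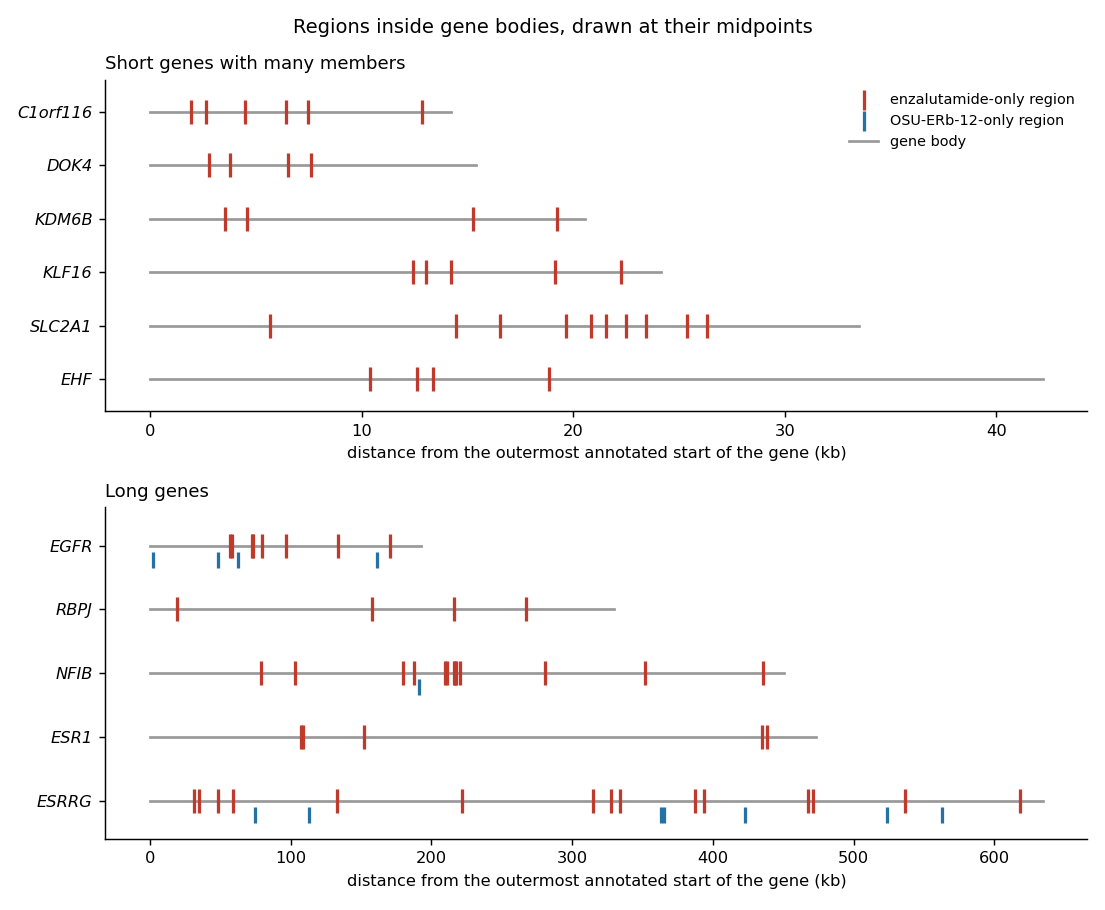
Positions of regions inside selected genes, x axis in kb from the outermost annotated start, with the gene body as a grey line, enzalutamide-only regions in red on it and OSU-ERb-12-only regions in blue below it; no combination-only region lay inside these genes away from their ends. SLC2A1 shows 10 red marks and no blue one, NFIB 13 and 1, and ESRRG 15 and 7.

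No region of the other lists, shared ones included, lay in the body of 2142 of the 5144 genes (41.6%). Of all genes with room, weighted to the same lengths, 50.3% held none, so genes with an enzalutamide-only region were not more often free of the other lists. In 24 of these genes the enzalutamide-only gene-body regions numbered 5 or more. ITGA1, which encodes an integrin alpha chain of a collagen receptor, and RIMS1, a gene of synaptic vesicle release, held 7 each. In ITGA1, 2 of the 7 were also inside PELO, a gene within it. MXI1, an antagonist of MYC, the lens gene BFSP2, the lipid flippase gene ATP8B4 and ARHGAP24, a Rac regulator, held 6 like C1orf116. Those with 5 included CTNND1, the gene of p120 catenin, MLPH, a melanosome transport gene, TPD52, a prostate cancer gene induced by androgen, and ESR1. The 5 of TPD52 were counted again in the read-through gene TPD52-MRPS28.

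ESR1, oestrogen receptor alpha, held 5 of 250 to 450 bp, at 107, 109, 152, 435 and 439 kb from its start, and no region of the other lists. NR3C1, the glucocorticoid receptor gene, whose product can take over androgen target genes under antiandrogens, held 2, at 17.3 and 32.1 kb. KLK3, the gene of prostate-specific antigen, held 1 of 300 bp, 3.99 kb from its start (chr19:50858751-50859050). ESR2, the gene of the receptor that OSU-ERb-12 binds, held none and 1 OSU-ERb-12-only region. PGR, FKBP5, TMPRSS2, FOXA1 and HOXB13 held none. The last 2 are under 6 kb long and leave little room away from their ends. The full enzalutamide list, before the rule was applied, had 1 region overlapping the body of each of ESR2, FKBP5 and HOXB13. It had none in PGR, TMPRSS2 and FOXA1. Of the luminal and basal markers, KRT8 held 4 and KRT18, KRT5, KRT14 and TP63 held none. In KRT18 the full enzalutamide list had 2 regions that the rule left out. Positions alone cannot check the cell type against marker levels.

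Of 48 nuclear receptor genes, 20 held an enzalutamide-only gene-body region (41.7%, where genes of the same lengths gave 37.8%) and 23 held an OSU-ERb-12-only one (47.9%, against 31.8% at the same lengths). After ESRRG with 15 came THRB, a thyroid hormone receptor, with 7 beside 8 OSU-ERb-12-only regions. RORA held 5, and NR5A2 and RARB, a retinoic acid receptor, held 4 each. RARB was the reverse case, with 11 OSU-ERb-12-only and 2 combination-only regions. NR2F2, NR4A1 and NR6A1 held 2 each and no region found only in another list.

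Androgen response genes held one in 18 of 40 cases (45.0%), against 37.0% of genes of the same lengths. An OSU-ERb-12-only region lay inside 12 of them (30.0%; 31.1% at the same lengths) and a combination-only region inside 1, HOMER2 (2.50%; 13.1%). INPP4B, a phosphatase that limits PI3-kinase signalling, led with 8, followed by the zinc finger factor ZBTB16 with 6, and TPD52 and the hydrolase gene ABHD2 with 5 each. NDRG1, PMEPA1, ACSL3, HOMER2, HERC3 and ABCC4 held 2. Those with 1 included KLK3, SPDEF, HPGD, RAB4A, STEAP4, IQGAP2 and MAF. Among coregulator genes, the deacetylase gene HDAC4 held 7, the coactivator NCOA2 6 and the demethylase KDM4C 3. GATA2, EP300, CREBBP and NCOA1 held none.

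Prostate lineage and ETS factor genes had the widest gap to genes of the same lengths, 17 of 30 (56.7%) against 31.1%. Of the same 30 genes, 7 held an OSU-ERb-12-only region (23.3%; 25.9% at the same lengths) and 5 a combination-only one (16.7%; 11.1%). EHF, an epithelial ETS factor, held 4 within 10.4 to 18.9 kb of its start, TBX3 and TFAP2A, an AP-2 factor, held 3, and ETV1, FLI1 and GRHL2, a grainyhead factor of epithelia, held 2. Single regions were found in ETV4, SPDEF, KLF5, ELK4, GATA3, ONECUT2, ETS1, RUNX2, RUNX1, ERG and TCF4. The list is short, it was drawn up with results of these data known, and no test was run on it.

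Across all 20 gene lists the share with an enzalutamide-only gene-body region ran from 6.45% to 88.0%, and it lay above the share at the same lengths in 18 of them. Large neuronal and fragile genes were at the top: 22 of 25 fragile site genes (88.0%; 76.1% at the same lengths), 35 of 42 axon guidance and synaptic adhesion genes (83.3%; 67.4%) and 24 of 30 voltage-gated channel genes (80.0%; 66.5%). Lengths were matched by decile only, and the longest decile had a median of 266 kb. Median lengths were 1369 kb in the fragile site list, 372 kb in the axon guidance list and 333 kb in the channel list. The gaps of these 3 lists are therefore not free of gene length. The OSU-ERb-12-only regions covered 36 of the same 42 axon guidance genes (85.7%; 57.6% at the same lengths), led by CNTNAP2 with 16. They lay in 19 of the fragile site genes (76.0%; 64.9%) and 20 of the channel genes (66.7%; 56.5%). CNTN4 and ROBO1 held 9 enzalutamide-only regions each, beside 8 and 5 OSU-ERb-12-only ones. The calcium channel gene CACNA1C held 6 beside 12 of OSU-ERb-12. Phosphodiesterase and cyclic AMP genes followed with 27 of 36 (75.0%; 61.8%), where CREB5 held 7 and AKAP13 and PDE4D 6 each. An OSU-ERb-12-only region lay inside 28 of the same 36 genes (77.8%; 52.6%). CREB5 held 7 of these, AKAP13 2 and PDE4D 10.

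In the signalling lists, 21 of 36 PI3K, AKT and mTOR pathway genes held one (58.3%; 48.8%) and 14 held an OSU-ERb-12-only region (38.9%; 41.7%). After INPP4B came PIK3CB, the catalytic subunit p110 beta, and RPTOR with 5 each, and RPS6KA1 and INSR, the insulin receptor gene, with 3. OSU-ERb-12-only regions numbered 2 in INPP4B and in PIK3CB, 8 in RPTOR and 0 in RPS6KA1 and in INSR. MTOR held 1 and the 3 AKT genes none. Of 34 receptor tyrosine kinase genes 17 held one (50.0%; 45.7%), and 17 held an OSU-ERb-12-only region (50.0%; 39.0%). EGFR led with 8 beside 4 of OSU-ERb-12, and ALK, with 4, held 7. Integrin, collagen and laminin genes gave 21 of 35 (60.0%; 48.6%), led by ITGA9 with 8 and ITGA1 with 7. Histone methyltransferase and demethylase genes gave 24 of 42 (57.1%; 45.6%), led by SMYD3 with 9. An OSU-ERb-12-only region lay inside 16 of the integrin, collagen and laminin genes (45.7%; 41.0%) and 19 of the histone enzyme genes (45.2%; 39.0%). ITGA9 held 6 of these regions, ITGA1 0 and SMYD3 9. Shares close to those at the same lengths were found for Hippo pathway genes (13 of 26, 50.0%; 47.3%) and cytosolic ribosomal protein genes (2 of 31, 6.45%; 5.90%). Olfactory receptor genes, which most tissues keep silent, held one in 2 of 30 (6.67%) against 14.9%, while 4 held an OSU-ERb-12-only region (13.3%; 11.6%).

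**Figure D4:**
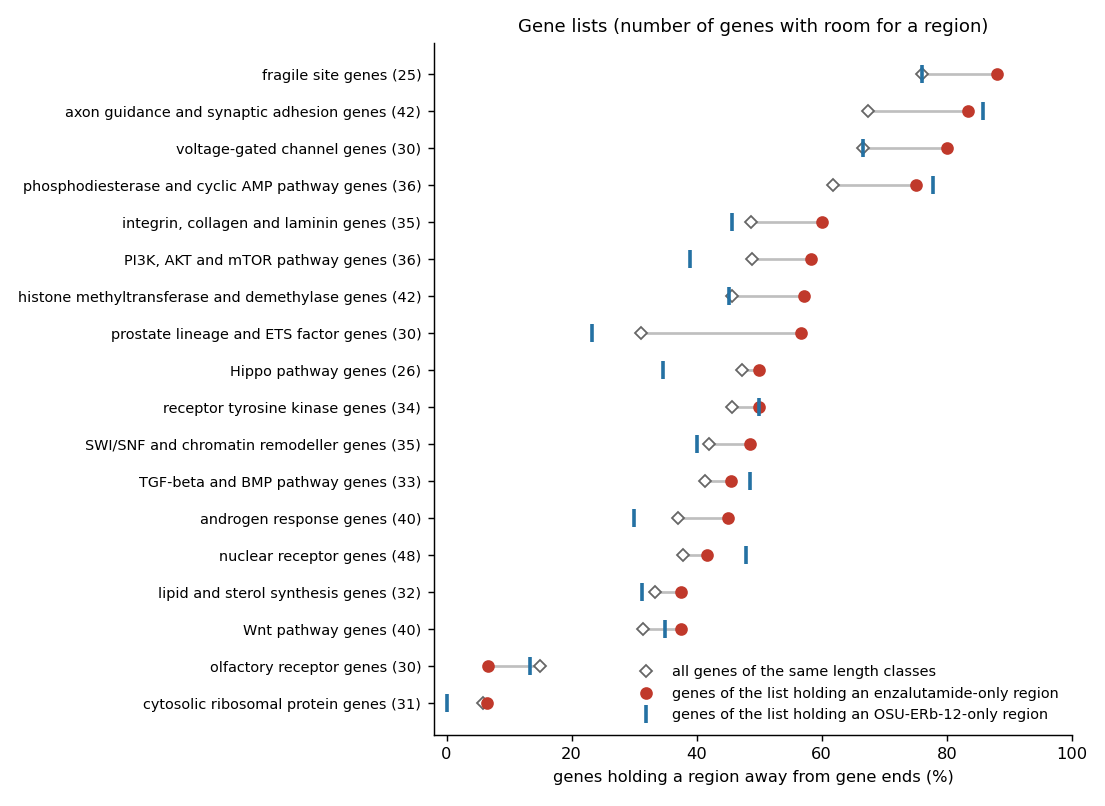
Share of genes in 18 of the 20 lists that hold a region away from gene ends (x axis, percent), with red circles for enzalutamide-only regions, blue bars for OSU-ERb-12-only regions and open diamonds for the enzalutamide-only share of all genes in the same deciles of length; the number of genes with room for a region is in brackets. The longest gap between circle and diamond is in prostate lineage and ETS factor genes, 56.7% against 31.1%.

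Over all chromosomes there were 7.37 regions per megabase of gene body. Among chromosomes 1 to 22 and X, chromosome 19 had the most per megabase (10.6), followed by 1 (9.71), 22 (9.62) and 12 (9.46). The X chromosome had 3.79. OSU-ERb-12-only gene-body regions ranged more widely over these chromosomes, from 0.468 per megabase on X to 10.8 on chromosome 3, with 6.10 over all. On chromosomes 3, 7, 8 and 12 the OSU-ERb-12-only regions outnumbered the enzalutamide-only ones, 970 to 786 on chromosome 3. On chromosome 6 it was 200 to 424 and on X 23 to 186.

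**Figure D5:**
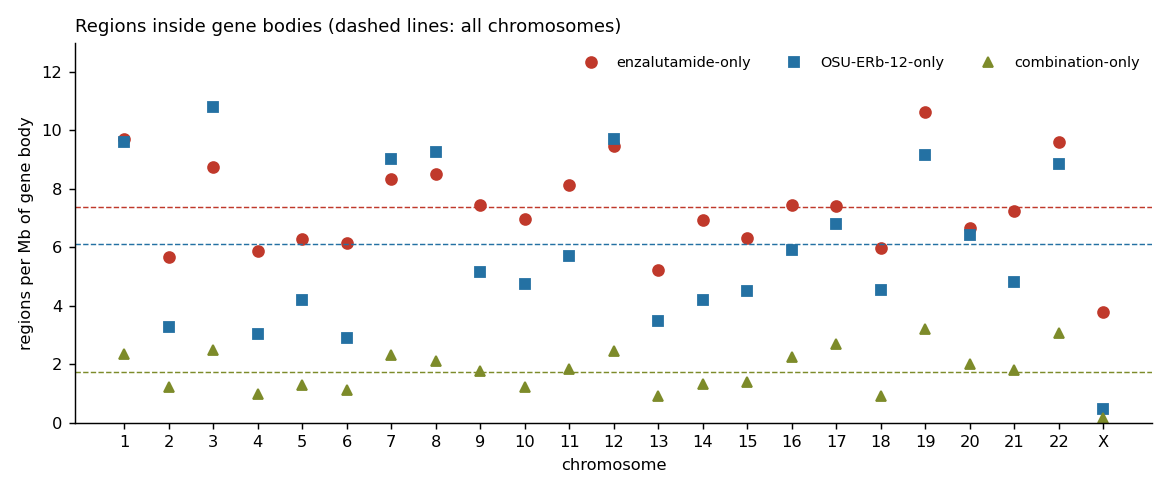
Regions per megabase of gene body away from gene ends (y axis) on chromosomes 1 to 22 and X (x axis), with dashed lines for all chromosomes together. Enzalutamide-only values run from 3.79 on X to 10.6 on chromosome 19, and OSU-ERb-12-only values from 0.468 on X to 10.8 on chromosome 3.

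Non-coding genes within the bodies were touched at rates whose intervals overlapped between the lists. A long non-coding RNA gene overlapped 756 of the regions (8.40%; 7.83 to 8.99), 7.93% of OSU-ERb-12-only (7.32 to 8.56) and 7.11% of combination-only gene-body regions (6.06 to 8.28). MicroRNA genes lay in 6 regions, against 2 and 1. They included MIR4728 in the receptor gene ERBB2, MIR616 in the stress factor gene DDIT3, MIR6819 in the myosin gene MYH9, MIR5192 in B3GNT2, and MIR4479 in TRAF2, in a region of 750 bp.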

How the data were processed

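Accessibility was measured by ATAC-seq in 12 samples of 22Rv1 cells, 3 per group. Per the labels' protocols, ATACSeqQC gave the nucleosome-free fraction; the submitters' processing notes name FastQC, Trimmomatic and hg38. The caller, the comparison, its threshold, its direction, the treatment of the transposase offset and any pooling of replicates were not given in the sources used here. What was deposited are 3 lists of regions whose score column, as deposited by the authors, is 0 in every row, which leaves no measure of strength per region. All boundaries are multiples of 50 bp. Replicates are labelled biological; without values per library, depth and replicate spread could not be given.

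Lists were matched to treatments by the prefix they share with sample titles; for OSU-ERb-12 the prefix is WT, unexplained by the labels. Gene bodies came from RefSeq (GRCh38.p14), with 20037 protein-coding genes. Strand and starts came from RefSeq start windows, which cover 15843 of these genes and none on chromosome 8; exons and introns were not used here. Overlaps, gaps and shares were computed with Python 3.11.15, numpy, pandas and scipy, with exact Clopper-Pearson 95% intervals, and the overlap procedure was tested on simulated intervals. The share at the same lengths is the mean, over the genes of a list, of the share holding a region in their decile of gene length.

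Named genes are the 15 with the most regions, the 15 with the most per 10 kb among those with 3 or more, up to 4 per gene list, those of the 8 widest regions and the longest chains, and a fixed set of receptor, target and keratin genes. Genes with 5 or more regions and none of the other lists, genes with annotated starts, the printed sequences and further members of the lists were picked after their values were seen. The members and lists were chosen with earlier results of these data known. The alternatives were other rules for sharing, gene ends, gene models and widths. Some genes and lists the rule takes are left out of the text. Oestradiol samples of the design text were not analysed here.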

Additional observations from a re-analysis of the deposited data

How the results depend on the processing

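The number of regions was 9000 in the main analysis and 7157 to 12681 under 5 kb windows or none at gene ends; it was within 1.5 times the main count under all planned settings but one. With 200 bp regions left out there were 4621 regions in 3266 genes, 11.97% had another within 10 kb and 10.7% lay on chromosome 1, against 11.7% in the main analysis; fewer regions enter by construction. The share nearer the start than the far end of the gene was 51.7% with a 5 kb window. The share with an annotated start, under alternatives chosen after the data were seen, was 1.64% if the midpoint had to lie within 100 bp of the start, 2.85% without and 1.31% with only 200 bp regions, 1.66% with a 5 kb window and 1.77% with starts of protein-coding genes only. With 200 bp regions left out ESRRG held 8, NFIB 7 and SLC2A1 5. With regions within 1 kb merged first SLC2A1 held 5, and with a 5 kb window C1orf116 held 2. Androgen response genes with a region numbered 12 to 18. Of 64 values under alternatives, 49 stayed within 1.5 times the main count or within the main interval. No paired analysis was possible because the lists hold no value per library, and for the same reason no replicate could be left out. Precision is limited by depth, which is unknown.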
